A study of Mus musculus with 48 samples.

Results

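This section describes how the kidney response to subtotal nephrectomy (Nx, removal of most of the kidney mass) differed between 2 mouse strains 53 days after the operation. Per the study's design text, FVB mice are prone to kidney lesions after this surgery and C57BL/6 mice (written B6) are not, and animals of each strain had Nx or a sham operation at 9 weeks of age. Whole-kidney RNA was hybridised to Affymetrix arrays, 1 array per numbered mouse, so the arrays of a group are separate animals. The 16 of 48 arrays taken at day 53 form 4 groups of 4: FVB Nx (mice 10, 4, 7 and 8), FVB sham (mice 1, 3, 5 and 6), B6 Nx (mice 1, 2, 4 and 7) and B6 sham (mice 1, 3, 5 and 6), and the values of each group are given below in that order of mice. The effect in a strain is the mean of its 4 Nx arrays minus the mean of its 4 sham arrays on the log2 scale. The quantity reported is the difference of effects, (FVB Nx minus FVB sham) minus (B6 Nx minus B6 sham), for each of 13174 genes, and a positive value means a higher effect in FVB. A gene was called when its p-value from limma, adjusted by the Benjamini-Hochberg method over all 13174 genes, was under 0.05.

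After Nx the nephrons that remain enlarge and carry the whole filtration load. In animals that tolerate this poorly, tubule cells lose their transport machinery and re-enter the cell cycle, injured epithelium releases chemokines and growth factors, macrophages gather, and fibroblasts lay down collagen. Healthy tubules spend most of their energy on reabsorption, so their transporters, ion channels and mitochondrial enzymes are abundant in the normal kidney.

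All 16 arrays carried strong kidney transcripts, with uromodulin (Umod), made by the thick ascending limb, between 14.56 and 15.26. Transcripts of other tissues were present on some arrays. The mean of 19 pancreatic enzyme genes was above 5 on FVB Nx mice 4 and 7 and B6 Nx mice 1 and 7, and between 3.48 and 3.55 on the 8 sham arrays. An alternative fit left out every array of the series above 5, at days 2, 28 and 53. It dropped these 4 and, among others, 3 of the 4 arrays of each Nx group at days 2 and 28. The median difference over all genes was 0.0267 in that fit, against 0.0098 with all arrays. Below, it is called the fit without the arrays with pancreatic transcripts. The muscle actin Acta1 read 9.37 and 6.92 on FVB Nx mice 7 and 8 and 2.20 on the other 14 arrays. The adrenal gene Star read 10.41 and 11.09 on FVB Nx mice 10 and 8 and between 2.91 and 5.41 on the other 14 arrays. The Actb 3 prime minus 5 prime difference, which rises with RNA degradation, was 1.85 to 1.96 on FVB Nx arrays, against 2.09 to 2.23 on FVB sham arrays, and 2.12 to 2.52 on B6 Nx arrays, against 2.05 to 2.32 on B6 sham arrays. The measure was lowest in FVB Nx kidneys. With it as a covariate, 2955 genes were called. The deposited table has a lowest value of 2.198 that all arrays share, and some probe sets repeat a value of their own on at least 6 arrays. Below, lowest values are those at or under 2.277, the level a gene had to exceed on at least 4 arrays to be tested, or no more than 0.01 above such a repeated value. Of the called genes, 487 had a group with all 4 arrays at lowest values in this sense, and a fold against such a group is given as a lower bound.

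The strains differed broadly. Of 13174 genes, 3839 (29.1%) were called, of which 1874 (14.2%) went up more or down less in FVB (a higher effect) and 1965 (14.9%) the reverse (a lower effect). The median difference over all genes was 0.0098. With each array shifted to a common median, which moved the all-gene median difference to -0.107, the calls split into 1343 higher and 2777 lower. A difference of at least 1 on the log2 scale was reached by 674 of the higher genes (5.12% of all) and 514 of the lower ones (3.9% of all), and 2 or more by 186 (1.41%) and 83 (0.63%). In most called genes the FVB kidney had moved and the B6 kidney had not passed the test. The FVB effect alone was called in 2854 of the 3839 genes (74.3%), both effects in the same direction and larger in FVB in 709 (18.5%), and the B6 effect alone in 130 (3.39%). Both effects were called in opposite directions in 51 (1.33%), and both in the same direction but larger in B6 in 7.

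**Figure D1:**
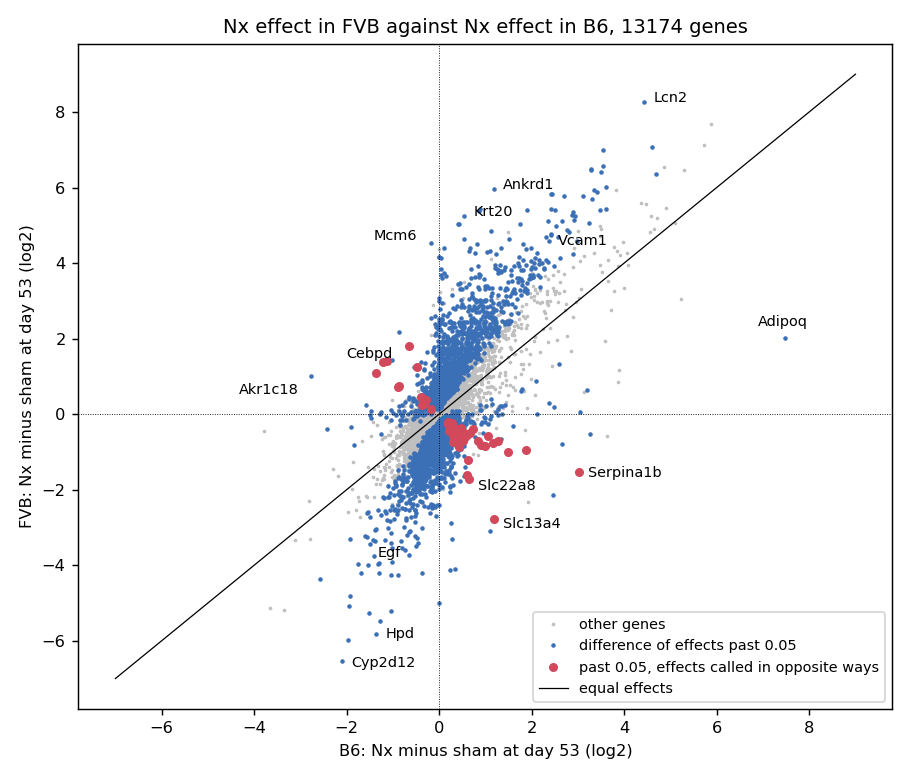
Effect of Nx in FVB (vertical axis, log2) against the effect in B6 (horizontal axis, log2) for 13174 genes at day 53; the line marks equal effects. Blue points are the called genes other than those that went opposite ways, red points are the 51 genes called in opposite ways, grey points are the rest. Most called genes lie above the line at right and below it at left, with a steeper spread in FVB than in B6.

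The plot of FVB against B6 effects shows effects of unequal size. Of the 3839 called genes, 1154 (30.1%) had effects of opposite sign in the strains, and in all but 51 of these at least 1 of the 2 effects was short of the threshold. Across genes the 2 effects correlated at 0.741 (Pearson) and 0.636 (Spearman), a description over genes, which are not independent replicates. The SD of the effect over genes was 0.967 in FVB and 0.516 in B6. Nx against sham was called for 7075 genes in FVB (53.7%) and 1938 in B6 (14.7%). Of the 1058 genes that rose in B6, 868 (82.0%) also rose in FVB, and of the 880 that fell in B6, 666 (75.7%) also fell in FVB. Read the other way, 25.4% of the 3412 genes that rose in FVB rose in B6. The called genes were then split by the strain contrasts of operated and of sham kidneys. Both contrasts are parts of the difference by which the genes were called, so the split is given as values only. Of the called genes, 2808 (73.1%) differed between FVB Nx and B6 Nx and not between the sham groups, 399 (10.4%) differed between the sham groups alone, 454 (11.8%) in both and 178 (4.64%) in neither. Among all genes, FVB Nx and B6 Nx differed in 44.7% and the sham groups in 15.1%. The 4 FVB Nx arrays did not overlap the 4 FVB sham arrays in 46.1% of genes, B6 Nx did not overlap B6 sham in 21.7%, and FVB Nx did not overlap B6 Nx in 36.5%.

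The gene lists used below group genes by cell type or pathway, and each is described by how many members were called in each direction and by its median difference. These stand beside the 14.2% higher and 14.9% lower of all genes. Counts of genes that rose or fell within a strain stand beside the 25.9% of all genes that rose and 27.8% that fell in FVB, and the 8.03% that rose and 6.68% that fell in B6. The plot of list medians sets the 2 effects side by side.

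**Figure D2:**
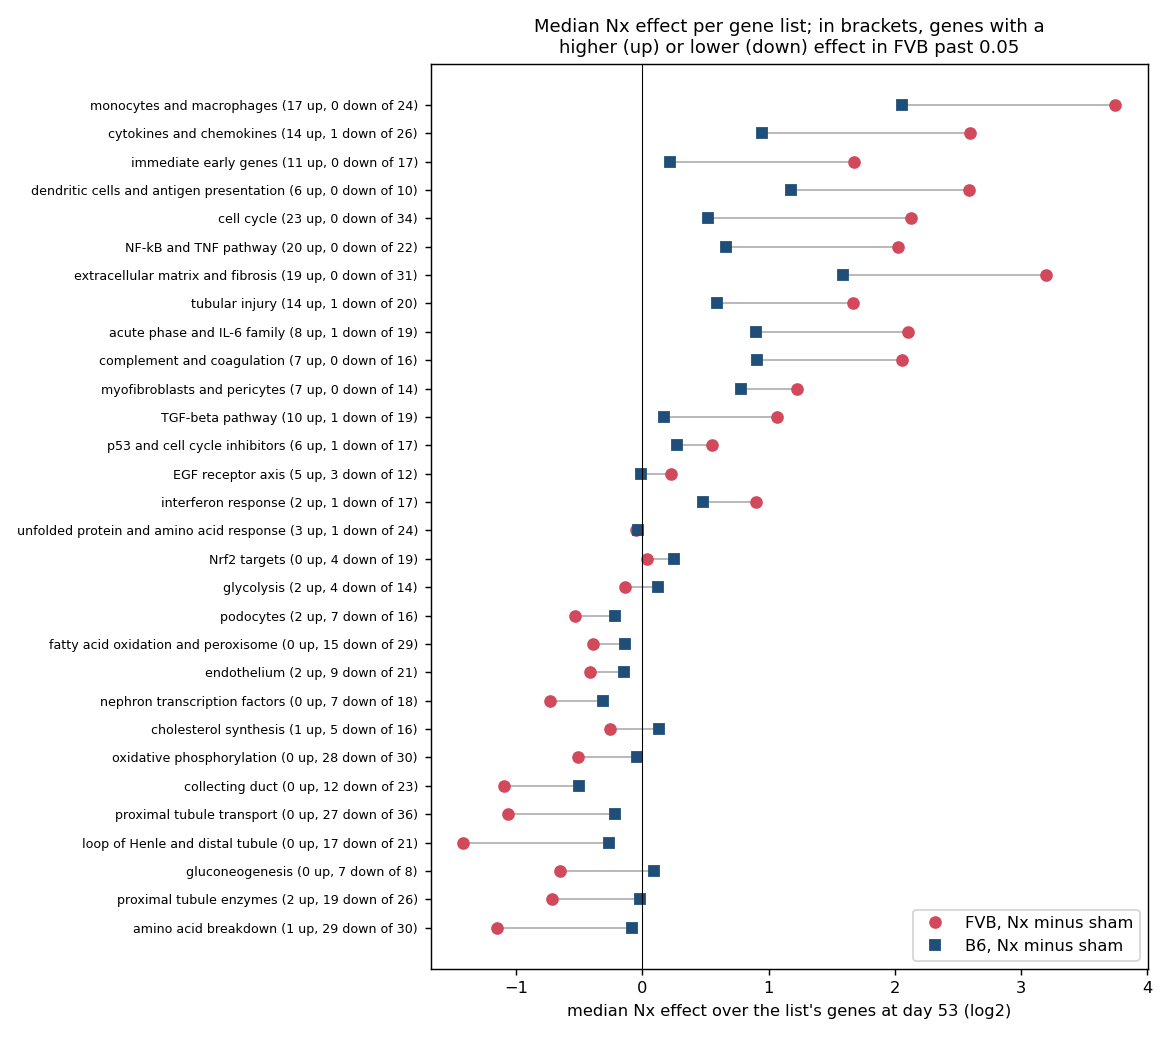
Median effect of Nx (log2) over the measured genes of 30 lists at day 53, FVB as circles and B6 as squares, ordered by the median difference of effects, with counts of genes called higher (up) or lower (down) in FVB. The lists of immune cells, matrix, injury and cell division have both medians above 0 with FVB further out, and those of nephron segments have both below 0 with FVB further out.

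Of 20 measured genes of injured tubules, 16 rose in FVB and 10 in B6. Of the 20, 14 had a higher effect in FVB, 1 a lower one and 5 did not pass (median difference 1.15). Keratin 20 (Krt20), an intermediate filament protein that injured tubules make, read 8.04, 8.15, 8.65 and 8.28 in FVB Nx kidneys, against 3.05, 2.99, 3.05 and 3.05 in FVB sham kidneys, and 3.62, 3.15, 4.48 and 3.09 in B6 Nx kidneys, against 3.05, 3.03, 3.05 and 3.03 in B6 sham kidneys. All FVB Nx values stood far above the other 12. The sham values lay near the repeated low value of this probe set, and B6 Nx lay above B6 sham, with mouse 4 the highest. Krt20 rose at least 37.3-fold in FVB, against an effect of 0.54 (SE 0.21, adjusted p = 0.0828) in B6, and the difference was 4.70 (SE 0.30, adjusted p = 2.2e-14). Lipocalin 2 (Lcn2), an iron-carrier protein released by damaged tubules, read 12.14, 12.92, 12.18 and 12.75 in FVB Nx kidneys, against 4.17, 4.45, 4.17 and 4.17 in FVB sham kidneys, and 9.36, 8.24, 9.86 and 8.43 in B6 Nx kidneys, against 4.84, 4.17, 4.45 and 4.68 in B6 sham kidneys. Here B6 responded too, and each group stood apart from the others except the 2 sham groups. Lcn2 rose 306-fold in FVB and 21.7-fold in B6, with a difference of 3.82 (SE 0.62, adjusted p = 1.22e-05). Clusterin (Clu), a secreted chaperone, was abundant everywhere at 15.06, 15.27, 14.82 and 14.86 in FVB Nx kidneys, against 13.04, 12.95, 13.20 and 13.50 in FVB sham kidneys, and 13.99, 14.04, 14.05 and 14.17 in B6 Nx kidneys, against 13.65, 13.31, 13.43 and 13.32 in B6 sham kidneys. It rose in both strains and by more in FVB, with a difference of 1.19 (SE 0.14, adjusted p = 2.21e-08). Tnfrsf12a, the receptor of the cytokine TWEAK, had a difference of 2.86 (SE 0.41, adjusted p = 1.83e-06), and the adhesion molecule Vcam1 one of 2.20 (SE 0.31, adjusted p = 1.18e-06).

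Ankrd1, a stretch-responsive nuclear cofactor, had the largest positive difference of all. It read 9.64, 9.51, 8.45 and 10.20 in FVB Nx kidneys, against 2.82, 4.03, 3.50 and 3.65 in FVB sham kidneys, and 6.02, 4.25, 4.55 and 4.40 in B6 Nx kidneys, against 3.24, 2.98, 4.03 and 4.22 in B6 sham kidneys, so FVB Nx lay above every other array. B6 Nx mouse 1 was the highest outside that group. The difference was 4.76 (SE 0.61, adjusted p = 2.34e-07). Slpi, a secreted inhibitor of neutrophil elastase, read 7.13, 8.42, 6.02 and 8.16 in FVB Nx kidneys, against 3.61, 3.58, 3.50 and 3.67 in FVB sham kidneys, and 3.61, 3.58, 3.56 and 3.65 in B6 Nx kidneys, against 3.65, 3.61, 3.50 and 3.51 in B6 sham kidneys. Only FVB Nx left the level near 3.6, and the difference was 3.81 (SE 0.75, adjusted p = 0.000154). The acute phase inhibitor Serpina3n (4.11), the lipid phosphodiesterase relative Smpdl3b (4.60), the lectin Clec4n (4.53) and the adaptor Pik3ap1 (4.28) followed the same layout, with every FVB Nx array above the other 12. Of these, Clec4n rose at least 40.5-fold in FVB and Pik3ap1 at least 20.8-fold, from sham groups at their lowest values.

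Signals that recruit and feed macrophages came next. Of 26 cytokine and chemokine genes, 14 had a higher effect in FVB, 1 a lower one and 11 did not pass (median difference 1.73). The cytokine Il34, a ligand of the macrophage growth receptor Csf1r, read 4.94, 5.18, 5.15 and 5.37 in FVB Nx kidneys, against 2.20, 2.21, 2.20 and 2.21 in FVB sham kidneys, and 2.35, 2.21, 2.21 and 2.29 in B6 Nx kidneys, against 2.20, 2.20, 2.20 and 2.21 in B6 sham kidneys. It was above its lowest value by a clear margin only in FVB Nx kidneys. It rose at least 7.36-fold in FVB against a B6 effect of 0.06 (SE 0.11, adjusted p = 0.815), and the difference was 2.89 (SE 0.15, adjusted p = 5.17e-17). Csf1, the other ligand of that receptor, read 10.14, 10.28, 9.06 and 10.18 in FVB Nx kidneys, against 6.60, 6.88, 6.35 and 6.43 in FVB sham kidneys, and 8.23, 7.48, 7.33 and 7.70 in B6 Nx kidneys, against 6.88, 6.94, 6.18 and 6.20 in B6 sham kidneys. Both strains rose, FVB 10.2-fold and B6 2.19-fold, and the difference was 2.22 (SE 0.36, adjusted p = 9.81e-06). The receptor Csf1r, named after its values were seen, had a difference of 0.42 (SE 0.25, adjusted p = 0.22), short of the threshold. The neutrophil chemokine Cxcl2 rose at least 19.2-fold in FVB, with a difference of 3.68 (SE 0.69, adjusted p = 8.41e-05). Cxcl16, a membrane-bound chemokine, rose in both strains and by 1.05 (SE 0.20, adjusted p = 8.31e-05) more in FVB.

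The pathway of NF-kB, the transcription factor that relays TNF and Toll-like receptor signals, had the highest share of members among the inflammatory lists. Of the 22 genes, 20 had a higher effect in FVB, with 2 not passed (median 1.35, with medians of 2.02 in FVB and 0.66 in B6). The feedback inhibitor Tnfaip3 read 7.41, 8.38, 7.76 and 8.27 in FVB Nx kidneys, against 4.75, 4.69, 5.01 and 5.00 in FVB sham kidneys, and 5.91, 5.29, 5.47 and 5.60 in B6 Nx kidneys, against 5.02, 4.93, 4.75 and 4.75 in B6 sham kidneys. FVB Nx stood above all other arrays, B6 Nx lay above both sham groups, and the difference was 2.39 (SE 0.39, adjusted p = 1.12e-05). The necroptosis kinase Ripk3 was at its lowest values in both sham groups and had a difference of 0.84 (SE 0.15, adjusted p = 3.46e-05). Immediate early transcription factors had a higher effect in FVB in 11 of 17 genes, with 6 not passed (median 1.63, against 0.21 as the median B6 effect). Among them were Klf6 at 2.11 (SE 0.21, adjusted p = 1.59e-09), Atf3 at 3.71 (SE 0.68, adjusted p = 6.53e-05), Myc at 2.61 (SE 0.43, adjusted p = 1.41e-05) and Maff at 2.49 (SE 0.45, adjusted p = 6.06e-05). In the acute phase and IL-6 list, 8 of 19 were higher, 1 lower and 10 not passed (median 1.10). Socs3, the feedback inhibitor of IL-6 signalling, rose 17-fold in FVB and 4.99-fold in B6, with a difference of 1.77 (SE 0.38, adjusted p = 0.000534). Cebpb, a transcription factor of the acute phase, rose by 2.10 in FVB (adjusted p = 2.15e-08) against 0.37 in B6 (adjusted p = 0.43).

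Promoter sequences are shown for 3 named genes that hold the letters of the pathways above: Csf1 and Icam1, which rose in both strains and by more in FVB, and Agt, described below, which went opposite ways. A window of 250 bases before to 50 after the start, from RefSeq on GRCm38.p6, was available for 117 of the 158 named genes. Capitals mark GGGACTTTC (the NF-kB letters searched), here in the reverse complement, in Csf1 at chr3:107760420-107760719 on the minus strand, and TTCCNGGAA (the STAT letters) in Icam1 at chr9:21015690-21015989 on the plus strand and Agt at chr8:124569657-124569956 on the minus strand.
Csf1: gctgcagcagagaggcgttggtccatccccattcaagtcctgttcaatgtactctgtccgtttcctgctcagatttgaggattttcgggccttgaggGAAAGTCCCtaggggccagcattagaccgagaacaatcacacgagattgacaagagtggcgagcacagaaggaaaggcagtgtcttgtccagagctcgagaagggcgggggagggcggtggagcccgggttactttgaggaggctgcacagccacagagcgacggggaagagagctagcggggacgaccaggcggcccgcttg
Icam1: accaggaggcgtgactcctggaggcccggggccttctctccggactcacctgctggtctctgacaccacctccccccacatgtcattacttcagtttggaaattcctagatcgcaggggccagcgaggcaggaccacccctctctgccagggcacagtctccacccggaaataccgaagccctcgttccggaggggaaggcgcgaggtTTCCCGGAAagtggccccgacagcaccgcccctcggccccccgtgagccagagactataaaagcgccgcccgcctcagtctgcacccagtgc
Agt: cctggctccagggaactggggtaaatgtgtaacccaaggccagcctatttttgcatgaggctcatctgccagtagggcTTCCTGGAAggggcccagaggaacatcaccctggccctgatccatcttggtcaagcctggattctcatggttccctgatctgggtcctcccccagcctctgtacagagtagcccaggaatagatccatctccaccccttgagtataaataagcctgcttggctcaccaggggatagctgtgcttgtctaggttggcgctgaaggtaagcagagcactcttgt
Searched on both strands, the NF-kB letters were in 1 of 55 windows of named genes with a higher effect in FVB (1.82%), 0 of 62 with a lower effect and 0.344% of all 27025 promoters. The STAT letters were in 3 of 55 (5.45%), 1 of 62 (1.61%) and 1.15%. Interferon response letters, also searched, were in 3 of 55 (5.45%), 7 of 62 (11.3%) and 8.57%. Letters of the transcription factors HNF1 and E2F were each in 1 of 55 and 1 of 62, against 0.836% and 1.11% of all promoters. Those of HNF4 were in 0 of 55, 0 of 62 and 0.477%. A match is a description of the letters in this window.

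Growth factor pathways changed member by member. The EGF receptor list had 5 genes higher, 3 lower and 4 not passed of 12 (median 0.25). Egf itself, made by the thick ascending limb and distal tubule, read 9.69, 10.85, 11.15 and 10.16 in FVB Nx kidneys, against 13.85, 13.88, 13.87 and 13.88 in FVB sham kidneys, and 13.16, 13.56, 13.47 and 13.39 in B6 Nx kidneys, against 13.74, 13.96, 13.84 and 13.91 in B6 sham kidneys. Every FVB Nx value lay under the 12 others, and every B6 Nx value lay under every sham value by a smaller gap. Egf fell 10.6-fold in FVB against a B6 effect of -0.46 (SE 0.17, adjusted p = 0.0572), with a difference of -2.94 (SE 0.24, adjusted p = 1.79e-11). Other ligands of the receptor ran the opposite way. Heparin-binding Hbegf had a difference of 1.76 (SE 0.24, adjusted p = 7.06e-07), and epiregulin (Ereg) one of 1.22 (SE 0.24, adjusted p = 0.000143), its 12 values outside FVB Nx all at the lowest value. Adam10, a protease that sheds such ligands, had 0.57 (SE 0.12, adjusted p = 0.000377).

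The TGF-beta list, whose pathway drives fibroblasts to make matrix, had 10 genes higher, 1 lower and 8 not passed of 19 (median 0.60). Ccn2, a matricellular target of the pathway, ranged over 12.80 to 13.99 in FVB Nx kidneys, against 11.90 to 12.01 in FVB sham kidneys, and 11.63 to 11.94 in B6 Nx kidneys, against 11.93 to 12.37 in B6 sham kidneys. FVB Nx stood above all other arrays. It rose by 1.39 in FVB, while the B6 effect was -0.40 (SE 0.17, adjusted p = 0.116), and the difference was 1.79 (SE 0.24, adjusted p = 6.46e-07). The receptor Tgfbr1 differed by 0.92 (SE 0.12, adjusted p = 4.07e-07), the shared mediator Smad4 by 0.42 (SE 0.08, adjusted p = 9.79e-05) and thrombospondin 1 (Thbs1), which activates the latent ligand, by 2.05 (SE 0.30, adjusted p = 2.56e-06). For Tgfbr1 and Smad4, all FVB Nx values lay above all B6 Nx values.

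Of 31 extracellular matrix genes, 30 rose in FVB and 27 in B6. Of the 31 genes, 19 had a higher effect in FVB, none a lower one and 12 did not pass (median 1.24, with medians of 3.20 in FVB and 1.59 in B6). The basement membrane collagen Col4a1 read 13.62, 13.61, 13.23 and 13.57 in FVB Nx kidneys, against 10.84, 11.13, 11.00 and 11.35 in FVB sham kidneys, and 12.81, 12.16, 12.66 and 12.66 in B6 Nx kidneys, against 11.84, 11.50, 11.46 and 11.58 in B6 sham kidneys. None of its 4 groups overlapped, with FVB Nx highest and FVB sham lowest. It rose 5.4-fold in FVB and 1.97-fold in B6, with a difference of 1.45 (SE 0.22, adjusted p = 3.22e-06). Its partner chain Col4a2 had 1.26 (SE 0.21, adjusted p = 2.06e-05). Genes of myofibroblasts and pericytes, the matrix-making cells, were higher in 7 of 14 with 7 not passed (median 0.63). The PDGF receptor Pdgfrb had 1.04 (SE 0.24, adjusted p = 0.000989), the adhesion molecule Ncam1 2.32 (SE 0.56, adjusted p = 0.00164), the proteoglycan Cspg4 0.62 (SE 0.19, adjusted p = 0.0105) and the contractile protein Tagln 0.95 (SE 0.31, adjusted p = 0.0181). Tagln lost its call without B6 Nx mouse 2, Cspg4 was not called with its most variable probe set (0.28, adjusted p = 0.497), and 3 of the 14 genes were called with the Actb measure as a covariate.

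Macrophage genes had the largest median difference of the 41 lists other than skeletal muscle. Of the 24 genes, 17 had a higher effect in FVB, with 7 not passed (median 1.77). All 24 rose in FVB and 18 rose in B6. In whole-kidney RNA, more cells of a type and more RNA per cell cannot be told apart. The mean of the 24 genes was 8.61 to 9.35 in FVB Nx kidneys, against 5.20 to 5.44 in FVB sham kidneys, and 7.48 to 8.02 in B6 Nx kidneys, against 5.50 to 6.23 in B6 sham kidneys. Cd14, the endotoxin co-receptor, read 11.24, 11.78, 11.04 and 11.57 in FVB Nx kidneys, against 5.82, 6.75, 6.62 and 7.00 in FVB sham kidneys, and 8.27, 7.28, 7.27 and 7.79 in B6 Nx kidneys, against 7.13, 6.16, 6.12 and 6.77 in B6 sham kidneys. It rose 29.1-fold in FVB and 2.16-fold in B6, with a difference of 3.75 (SE 0.46, adjusted p = 9e-08). The immunoglobulin receptor Fcgr1 had 2.65 (SE 0.54, adjusted p = 0.00023) and the complement subunits C1qb and C1qa had 2.16 (SE 0.45, adjusted p = 0.000309) and 1.92 (SE 0.41, adjusted p = 0.000438). Gpnmb, named after its values were seen, rose by 5.05 in FVB and 5.11 in B6, with a difference of -0.06 (SE 0.78, adjusted p = 0.977). With the Actb measure as a covariate, 10 of the 24 were called.

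Antigen presentation genes were higher in 6 of 10, with 4 not passed (median 1.52). The class II chain H2-Ab1 read 12.59, 12.79, 12.66 and 13.02 in FVB Nx kidneys, against 9.25, 9.22, 9.65 and 8.80 in FVB sham kidneys, and 11.82, 11.51, 11.31 and 11.78 in B6 Nx kidneys, against 10.32, 10.10, 9.81 and 9.92 in B6 sham kidneys. It rose 11.6-fold in FVB and 2.96-fold in B6, with a difference of 1.97 (SE 0.39, adjusted p = 0.000155). H2-Aa (1.50) and the invariant chain Cd74 (1.55) were like it. H2-Eb1 differed between the strains in every kidney. Its range was 6.49 to 7.05 in FVB Nx kidneys, against 2.93 to 4.44 in FVB sham kidneys. In B6 it was 11.33 to 11.85 in Nx kidneys, against 9.92 to 10.68 in sham kidneys. The H2-Eb1 difference of effects was 2.01 (SE 0.63, adjusted p = 0.0131). This call was lost without the arrays with pancreatic transcripts of all days (2.09). Complement and coagulation genes were higher in 7 of 16, with 9 not passed (median 0.78). Complement factor I (Cfi) read 9.78, 9.92, 8.15 and 9.23 in FVB Nx kidneys, against 4.28, 4.13, 4.53 and 4.01 in FVB sham kidneys, and 7.78, 6.28, 6.98 and 6.97 in B6 Nx kidneys, against 6.64, 6.43, 6.72 and 6.60 in B6 sham kidneys, with FVB sham lowest, and its difference was 4.63 (SE 0.56, adjusted p = 9.66e-08). Anxa2, a phospholipid-binding protein at the cell surface (1.43), the urokinase receptor Plaur (1.55) and the fibrinogen chain Fga (2.08) were also higher.

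Lymphocyte and neutrophil genes gave few calls. By limma, 0 of 8 T and NK cell genes (0 at an unadjusted p under 0.05, median -0.04) and 0 of 4 neutrophil genes (2, median 1.57) were called, and the neutrophil list mean ran from 2.68 to 6.53 over the FVB Nx arrays. Of 6 B and plasma cell genes, 2 were higher. Immunoglobulin mu (Ighm) read 8.00, 9.02, 6.94 and 9.86 in FVB Nx kidneys, against 6.03, 6.03, 5.97 and 6.00 in FVB sham kidneys, and 5.95, 5.99, 5.85 and 6.37 in B6 Nx kidneys, against 6.03, 5.90, 6.03 and 6.03 in B6 sham kidneys, with a difference of 2.40 (SE 0.37, adjusted p = 5.26e-06). Its call rests on the chosen probe set: with the most variable one, the difference was -1.82 (adjusted p = 0.433). The antibody-joining chain Jchain had 2.68 (SE 0.91, adjusted p = 0.0238), a call lost without FVB Nx mouse 4.

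Of 34 cell cycle genes, 26 rose in FVB and 13 in B6. Of the 34 genes, 23 had a higher effect in FVB, with 11 not passed (median 1.37, with medians of 2.13 in FVB and 0.52 in B6). The replication helicase subunit Mcm5 read 9.35, 9.35, 9.07 and 8.92 in FVB Nx kidneys, against 5.97, 6.42, 6.32 and 6.80 in FVB sham kidneys, and 7.57, 7.06, 7.53 and 7.25 in B6 Nx kidneys, against 7.24, 6.59, 6.26 and 6.29 in B6 sham kidneys. FVB Nx lay above all other arrays, and the difference was 2.03 (SE 0.36, adjusted p = 4e-05). The spindle checkpoint gene Mad2l1 had 1.25 (SE 0.24, adjusted p = 0.000103) and the replication licensing factor Cdc6 1.69 (SE 0.36, adjusted p = 0.000367). Inhibitors of the cycle moved with them: 6 of 17 genes of the p53 and inhibitor list were higher, 1 lower and 10 not passed (median 0.42). The inhibitor p21 (Cdkn1a) read 8.03, 7.96, 7.89 and 8.85 in FVB Nx kidneys, against 5.55, 5.00, 4.98 and 5.15 in FVB sham kidneys, and 6.80, 6.09, 6.46 and 6.58 in B6 Nx kidneys, against 5.61, 5.37, 5.49 and 5.46 in B6 sham kidneys. It rose 8.08-fold in FVB and 2-fold in B6, with a difference of 2.01 (SE 0.30, adjusted p = 3.58e-06). Btg2 (1.33), the death receptor Eda2r (1.45) and the death-promoting Bbc3 (0.59) were higher as well, with Eda2r not called with the Actb measure as a covariate.

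**Figure D3:**
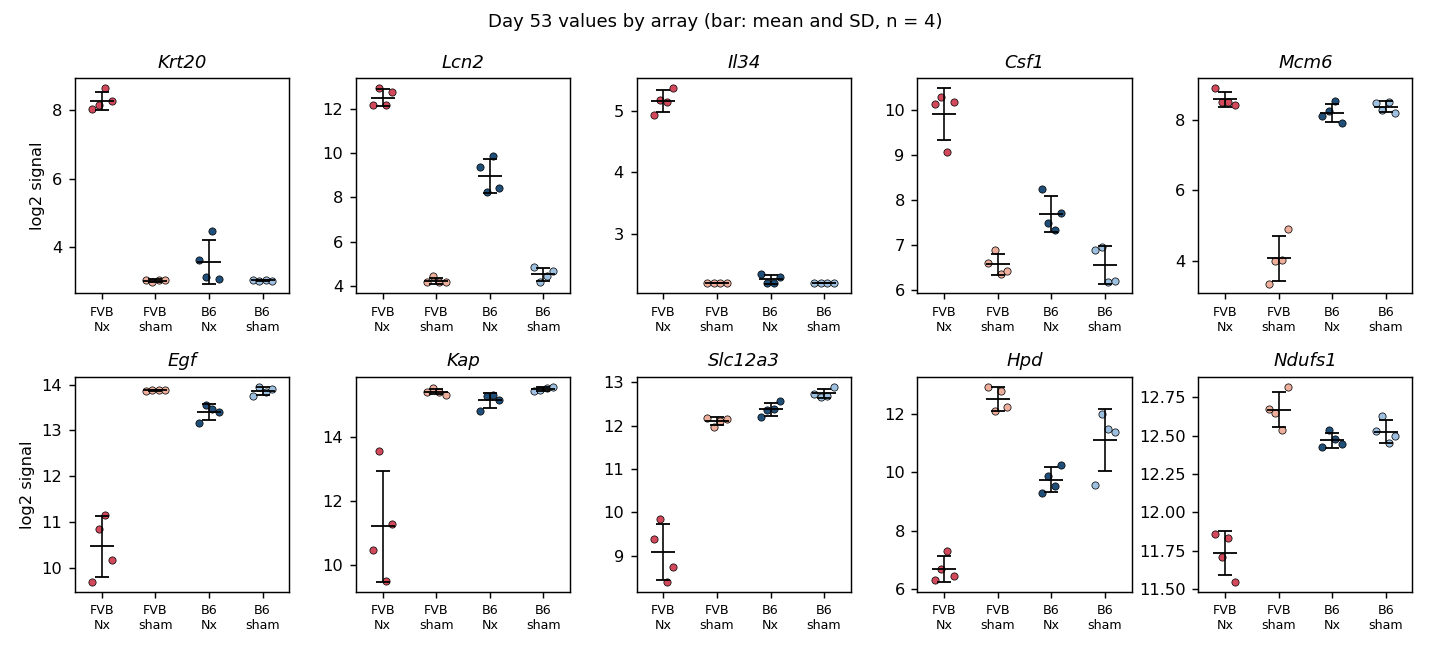
Log2 signal of 10 genes on each of the 16 arrays of day 53, as points, with the mean and SD of each group of 4 (FVB Nx, FVB sham, B6 Nx, B6 sham). In Krt20, Lcn2, Il34 and Csf1 the FVB Nx arrays are the highest, in Egf, Kap, Slc12a3, Hpd and Ndufs1 they are the lowest, and in Mcm6 FVB sham alone stands apart.

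Nephron function ran the other way, segment by segment. Of 36 proximal tubule transport genes, 27 had a lower effect in FVB, none a higher one and 9 did not pass (median -0.74, with medians of -1.06 in FVB and -0.22 in B6). The organic anion transporter Slc22a7 read 5.43, 7.93, 5.49 and 5.11 in FVB Nx kidneys, against 11.84, 12.26, 11.94 and 11.82 in FVB sham kidneys, and 8.65, 10.40, 10.76 and 10.27 in B6 Nx kidneys, against 11.92, 12.19, 11.98 and 11.89 in B6 sham kidneys. Mouse 4 was the highest of the FVB Nx group and still under all B6 Nx arrays. Slc22a7 fell 62.9-fold in FVB and 3.93-fold in B6, with a difference of -4.00 (SE 0.68, adjusted p = 2.09e-05). The protein uptake receptor megalin (Lrp2) read 12.95, 12.86, 12.84 and 12.53 in FVB Nx kidneys, against 14.27, 14.36, 14.29 and 14.24 in FVB sham kidneys, and 13.63, 13.85, 13.93 and 13.63 in B6 Nx kidneys, against 14.05, 14.21, 14.23 and 14.19 in B6 sham kidneys, with a difference of -1.09 (SE 0.16, adjusted p = 2.43e-06). With its most variable probe set the Lrp2 difference was -1.19 and not called (adjusted p = 0.176). The monocarboxylate transporter Slc16a9 had -1.59 (SE 0.20, adjusted p = 1.49e-07) and the sodium-proton exchanger Slc9a3 -1.10 (SE 0.15, adjusted p = 4.53e-07).

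Proximal tubule enzymes had 19 of 26 genes lower, 2 higher and 5 not passed (median -1.03). The kidney androgen-regulated protein Kap read 10.46, 13.56, 9.50 and 11.27 in FVB Nx kidneys, against 15.39, 15.52, 15.42 and 15.32 in FVB sham kidneys, and 14.81, 15.28, 15.30 and 15.17 in B6 Nx kidneys, against 15.45, 15.47, 15.54 and 15.57 in B6 sham kidneys. All sham and B6 Nx arrays were at 14.81 or above, while FVB Nx spread from 9.50 to 13.56. Every B6 Nx value also lay under every sham value. Kap fell 18.5-fold in FVB against a B6 effect of -0.37 (SE 0.39, adjusted p = 0.63), with a difference of -3.84 (SE 0.56, adjusted p = 1.95e-06). The aminoacylase Acy1 had -1.91 (SE 0.28, adjusted p = 2.71e-06). The cytochrome Cyp2d12, with one of the largest falls, read 3.01, 3.05, 3.53 and 2.83 in FVB Nx kidneys, against 10.16, 9.18, 9.60 and 9.66 in FVB sham kidneys, and 7.08, 8.54, 8.17 and 7.02 in B6 Nx kidneys, against 9.91, 9.71, 9.93 and 9.69 in B6 sham kidneys. It fell 93.5-fold in FVB and 4.3-fold in B6, and the difference was -4.44 (SE 0.69, adjusted p = 6.02e-06). Against the trend, the keto steroid reductase relative Akr1c21 rose by 1.95 in FVB, with a difference of 1.66 (SE 0.25, adjusted p = 2.85e-06), and FVB Nx minus B6 Nx was still -2.10 (SE 0.17, adjusted p = 1.06e-12).

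The loop of Henle and distal tubule had 17 of 21 genes lower and 4 not passed (median -0.87). The thiazide-sensitive cotransporter Slc12a3 read 9.39, 9.84, 8.39 and 8.73 in FVB Nx kidneys, against 12.18, 11.98, 12.11 and 12.16 in FVB sham kidneys, and 12.21, 12.37, 12.38 and 12.56 in B6 Nx kidneys, against 12.74, 12.67, 12.70 and 12.91 in B6 sham kidneys. The highest FVB Nx value was 9.84 and the lowest of the other 12 was 11.98. Slc12a3 fell 8.1-fold in FVB against a B6 effect of -0.37 (SE 0.19, adjusted p = 0.213), with a difference of -2.64 (SE 0.28, adjusted p = 3.89e-09). The other kept probe set of Slc12a3 had a difference of 0.02 and was not called. The calcium-binding proteins of the distal convoluted tubule moved with the first probe set, parvalbumin (Pvalb) by -4.21 (SE 0.72, adjusted p = 2.66e-05) and calbindin (Calb1) by -2.14 (SE 0.19, adjusted p = 1.36e-10). The potassium channel Kcnj1 had -1.39 (SE 0.15, adjusted p = 8.8e-09). In the collecting duct, 12 of 23 genes were lower and 11 not passed (median -0.64). In FVB 21 of the 23 fell, and in B6 13. The anion exchanger pendrin (Slc26a4) read 6.71, 6.52, 6.58 and 5.88 in FVB Nx kidneys, against 9.49, 9.37, 9.62 and 9.48 in FVB sham kidneys, and 8.06, 8.94, 8.82 and 8.74 in B6 Nx kidneys, against 9.86, 10.22, 9.99 and 10.00 in B6 sham kidneys, and fell 8.39-fold in FVB and 2.6-fold in B6, with a difference of -1.69 (SE 0.29, adjusted p = 2.47e-05). The ammonia transporters Rhbg (-1.52) and Rhcg (-1.40) and the carbonic anhydrase Car2 (-0.58) were also lower. Umod, named after its values were seen, had a difference of -0.18 (SE 0.11, adjusted p = 0.241).

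Glomerular and vascular genes had smaller medians. Podocyte genes were lower in 7 of 16, higher in 2 and not passed in 7 (median -0.27). Nephrin (Nphs1), of the slit diaphragm, read 3.51, 3.51, 2.35 and 2.41 in FVB Nx kidneys, against 5.43, 4.51, 5.19 and 5.14 in FVB sham kidneys, and 4.18, 4.49, 4.42 and 4.34 in B6 Nx kidneys, against 4.37, 4.49, 4.94 and 5.11 in B6 sham kidneys. FVB Nx was below the other groups, and the difference was -1.76 (SE 0.36, adjusted p = 0.000279). The basement membrane collagen Col4a4 (-0.81) and podocalyxin Podxl (-0.90) were lower and the adaptor Cd2ap (0.81) higher. With the most variable probe set, Podxl (adjusted p = 0.0778) and Cd2ap (0.368) were not called. Endothelial genes were lower in 9 of 21, higher in 2 and not passed in 10 (median -0.38). The VEGF receptor Kdr had -0.81 (SE 0.16, adjusted p = 0.00017), its ligand Vegfa -0.84 (SE 0.17, adjusted p = 0.000298) and the junction molecule Esam -0.87 (SE 0.21, adjusted p = 0.00158), and the leukocyte receptor Icam1 was higher at 1.41 (SE 0.29, adjusted p = 0.000252). With the Actb measure as a covariate, 7 of the 21 were called, against 11 without it, and Vegfa was not called with its most variable probe set (adjusted p = 0.199). Of 18 nephron transcription factors, 7 were lower and 11 not passed (median -0.40), among them Esrrb (-1.77), Esrrg (-0.81), Emx1 (-1.02) and Ppargc1a (-1.02), a coactivator of mitochondrial genes.

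Nearly every listed gene of amino acid breakdown and oxidative phosphorylation had a lower effect in FVB. Of 30 amino acid breakdown enzymes, 29 had a lower effect in FVB and 1, Hal, a higher one (median -1.10, with medians of -1.15 in FVB and -0.08 in B6). Hpd, a tyrosine-degrading enzyme, read 6.31, 6.69, 7.30 and 6.45 in FVB Nx kidneys, against 12.94, 12.12, 12.78 and 12.23 in FVB sham kidneys, and 9.30, 9.89, 9.55 and 10.26 in B6 Nx kidneys, against 9.59, 11.99, 11.49 and 11.38 in B6 sham kidneys. It fell 56.8-fold in FVB against a B6 effect of -1.36 (SE 0.52, adjusted p = 0.0718), and the difference was -4.47 (SE 0.73, adjusted p = 1.41e-05). The branched-chain keto acid dehydrogenase subunit Bckdhb read 8.98, 8.91, 9.37 and 9.20 in FVB Nx kidneys, against 11.27, 11.66, 11.43 and 11.64 in FVB sham kidneys, and 10.15, 10.24, 9.88 and 9.89 in B6 Nx kidneys, against 10.54, 10.67, 10.55 and 10.63 in B6 sham kidneys. Its difference was -1.83 (SE 0.18, adjusted p = 6.92e-10), with Pcca (-1.16), Auh (-1.18) and Hibch (-1.03) alongside. The betaine methyltransferase Bhmt had -3.74 (SE 0.78, adjusted p = 0.000342).

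Of 30 oxidative phosphorylation genes, 28 were lower and 2 not passed, with small differences (median -0.46, with medians of -0.51 in FVB and -0.04 in B6). All 30 fell in FVB and 1 fell in B6. The complex I subunit Ndufs1 read 11.86, 11.71, 11.83 and 11.55 in FVB Nx kidneys, against 12.67, 12.65, 12.54 and 12.82 in FVB sham kidneys, and 12.42, 12.54, 12.47 and 12.45 in B6 Nx kidneys, against 12.53, 12.63, 12.45 and 12.49 in B6 sham kidneys. FVB Nx was below the other 12 arrays, which overlapped, and the difference was -0.88 (SE 0.10, adjusted p = 1.35e-08). Sdha (-0.90), Uqcrfs1 (-0.62) and Ndufa9 (-0.56), of complexes II, III and I, had the same layout. With the most variable probe set, the Sdha difference was -0.18 and not called. Fatty acid oxidation and peroxisome genes were lower in 15 of 29 with 14 not passed (median -0.35), with Echs1 (-0.86), Pxmp2 (-1.49), Etfa (-0.51) and Hao2 (-0.95). Gluconeogenesis genes were lower in 7 of 8 (median -0.87), among them fructose bisphosphatase Fbp1 (-0.77) and the glucose 6-phosphate transporter Slc37a4 (-0.97). Glycolysis genes were split, 2 higher, 4 lower and 8 not passed of 14 (median -0.24), and 4 were called with the Actb measure as a covariate. Cholesterol synthesis genes were lower in 5 of 16 and higher in 1, with Cyp51 at -1.41 (SE 0.23, adjusted p = 1.1e-05) and Sqle at 1.42 (SE 0.24, adjusted p = 2.36e-05).

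Few genes were called in several stress programs. Of 17 interferon response genes, 2 were higher, 1 lower and 14 not passed (median 0.19), with Ifih1 at 0.98, Gbp2 at 1.37 and Rsad2 at -0.88. Gbp2 lost its call in 20 of the 35 alternatives, 11 of them with 1 array left out. Of 24 genes of the unfolded protein and amino acid response, 3 were higher, 1 lower and 20 not passed (median -0.08), and the 3 were the transcription factors Atf3 and Atf4 (1.01) and asparagine synthetase (Asns, 1.87). The Asns call was lost without B6 Nx mouse 2, B6 sham mouse 6, FVB sham mouse 1 or FVB sham mouse 5, and in 8 of the 35 alternatives in all. None of 19 Nrf2 targets was higher and 4 were lower (median -0.16). Of 12 genes of the insulin-like growth factor axis, 1 was higher, 2 lower and 9 not passed (median -0.25), with Igfbp5 at -1.23 (SE 0.25, adjusted p = 0.000284) and Igf1 at 1.19 (SE 0.39, adjusted p = 0.0196). The Igf1 call was lost without B6 sham mouse 6 and in 6 of the 35 alternatives in all. With the Actb measure as a covariate, 1 of the 12 was called.

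The 51 genes that went opposite ways (0.387% of all) had both effects past the threshold. The count was 2 with the mouse number as a fixed replicate block and 28 with the white adipose mean as a covariate. It was 18 at an adjusted p under 0.01 and 101 with array weights. In 37 the FVB kidney fell and the B6 kidney rose, and in 14 the reverse held. Solute carrier genes (symbols of Slc and a digit) make up 8 of the 51 (15.7%) and 284 of the 13174 genes tested (2.16%), a grouping chosen after the values were seen and not tested, and all 8 fell in FVB and rose in B6. The organic anion carrier Slco2a1, whose symbol falls outside that grouping, rose by 0.45 in FVB and fell by 0.39 in B6. The sulfate transporter Slc13a4 read 5.34, 4.80, 4.91 and 4.83 in FVB Nx kidneys, against 7.21, 7.46, 7.83 and 8.50 in FVB sham kidneys, and 6.11, 6.19, 6.01 and 6.17 in B6 Nx kidneys, against 4.38, 4.80, 5.29 and 5.29 in B6 sham kidneys. FVB Nx came down to the level of B6 sham, and B6 Nx lay above B6 sham. It fell 6.87-fold in FVB (adjusted p = 1.22e-11) and rose 2.27-fold in B6 (adjusted p = 0.00123), with a difference of -3.96 (SE 0.37, adjusted p = 3.78e-10). The organic anion transporter Slc22a8 read 10.03, 9.68, 9.79 and 9.12 in FVB Nx kidneys, against 11.54, 11.21, 11.70 and 11.05 in FVB sham kidneys, and 11.54, 11.72, 11.68 and 11.94 in B6 Nx kidneys, against 10.55, 11.21, 11.32 and 11.20 in B6 sham kidneys. The sham groups overlapped, FVB Nx lay below all other arrays, and B6 Nx lay above B6 sham and overlapped FVB sham. The effect was -1.72 in FVB and 0.65 in B6. The difference was -2.37 (SE 0.28, adjusted p = 3.8e-08). The anion exchanger Slc26a6 had -1.93 (SE 0.30, adjusted p = 5.97e-06), with low signals. It read 2.90 to 3.92 in FVB Nx kidneys, against 4.05 to 4.19 in FVB sham kidneys. In B6 it read 4.09 to 4.71 in Nx kidneys, against 3.12 to 3.53 in sham kidneys. Its probe set repeats a value of 4.089 on 7 arrays, and all FVB Nx and B6 sham values lay under it. As a lower bound, its fall in FVB was 1.02-fold.

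Glud1, the mitochondrial glutamate dehydrogenase that frees ammonia, read 13.06, 13.02, 13.08 and 12.86 in FVB Nx kidneys, against 13.33, 13.38, 13.40 and 13.46 in FVB sham kidneys, and 13.71, 13.83, 13.66 and 13.75 in B6 Nx kidneys, against 12.73, 13.09, 13.12 and 13.13 in B6 sham kidneys. B6 Nx was the highest group without overlap. It fell by 0.39 in FVB and rose by 0.72 in B6 on the log2 scale, with a difference of -1.11 (SE 0.12, adjusted p = 9.92e-09). The carboxylesterase Ces1f had a difference of -2.22 (SE 0.21, adjusted p = 7.17e-10), the monoacylglycerol acyltransferase Mogat2 one of -2.83 (SE 0.41, adjusted p = 1.67e-06) and the sterol enzyme Nsdhl one of -0.88 (SE 0.18, adjusted p = 0.000197). The protease inhibitor Serpina1b read 7.85, 7.89, 8.27 and 8.18 in FVB Nx kidneys, against 7.91, 10.31, 9.64 and 10.42 in FVB sham kidneys, and 6.90, 6.10, 5.93 and 5.99 in B6 Nx kidneys, against 2.36, 5.66, 2.35 and 2.47 in B6 sham kidneys. FVB sham was high and B6 sham low, so that the strains lay closer after Nx, and B6 sham mouse 3 stood apart from its group. The effect was -1.52 in FVB and 3.02 in B6, and the difference was -4.55 (SE 0.75, adjusted p = 1.63e-05). The ribonuclease Rnase4 had the same layout, with a difference of -2.50 (SE 0.39, adjusted p = 6.17e-06). Fam25c, with no role given here, had -1.98 (SE 0.36, adjusted p = 5.37e-05).

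In the smaller set, FVB rose and B6 fell. The transcription factor Cebpd, of the same family as Cebpb, read 10.08, 10.78, 9.55 and 11.41 in FVB Nx kidneys, against 9.50, 9.42, 9.43 and 9.10 in FVB sham kidneys, and 8.26, 7.89, 7.70 and 8.59 in B6 Nx kidneys, against 9.93, 8.22, 9.84 and 9.95 in B6 sham kidneys. FVB Nx lay just above FVB sham, while B6 Nx lay under 3 of the 4 B6 sham arrays, and B6 sham mouse 3 was low. The effect was 1.09 (SE 0.35, adjusted p = 0.00726) in FVB and -1.37 (SE 0.35, adjusted p = 0.00456) in B6, with a difference of 2.47 (SE 0.49, adjusted p = 0.000184). Socs2, an inhibitor of growth hormone signalling, rose by 1.42 in FVB and fell by 1.12 in B6, with a difference of 2.54 (SE 0.49, adjusted p = 0.00012). Its call was lost with the most variable probe set. The transcription factor Nfil3 had 2.59 (SE 0.52, adjusted p = 0.000197) and the heparan sulfate enzyme Hs6st2 2.45 (SE 0.30, adjusted p = 1.09e-07). Angiotensinogen (Agt), the precursor of angiotensin, read 8.13, 8.49, 8.71 and 8.92 in FVB Nx kidneys, against 7.22, 7.44, 7.08 and 7.50 in FVB sham kidneys, and 8.15, 7.42, 7.80 and 8.14 in B6 Nx kidneys, against 8.45, 8.45, 8.29 and 8.27 in B6 sham kidneys. It rose 2.38-fold in FVB and fell 1.4-fold in B6 (adjusted p = 0.0462), with a difference of 1.73 (SE 0.24, adjusted p = 8.62e-07). In each strain the operated and sham kidneys did not overlap. Of the 6 genes of the renin angiotensin system, 1 was higher, 1 lower and 4 not passed (median -0.14).

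**Figure D4:**
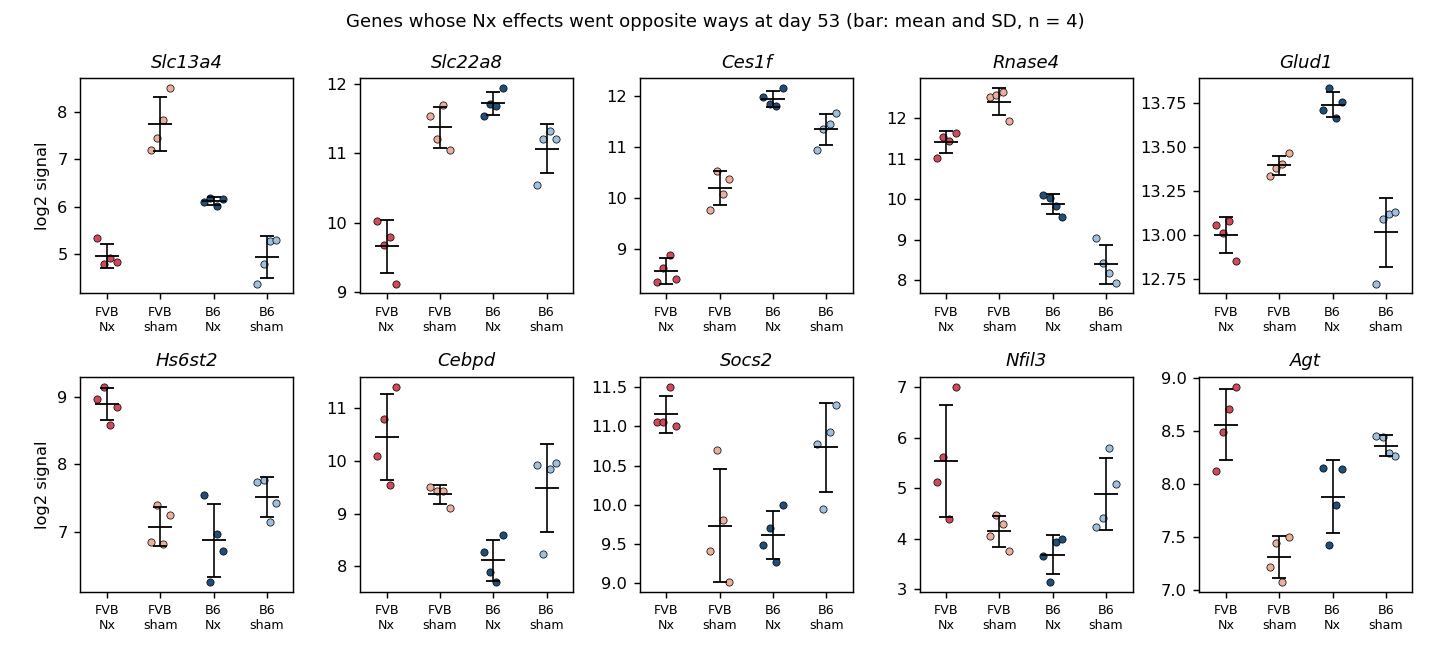
Log2 signal of 10 of the 51 genes that went opposite ways, on each of the 16 arrays, as points with the mean and SD of each group of 4. In the upper row FVB Nx is below FVB sham and B6 Nx above B6 sham, and in the lower row the directions are exchanged.

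In 130 called genes the B6 effect was called and the FVB effect was not. Acsm3, a mitochondrial acyl-CoA synthetase, read 3.34, 3.32, 4.03 and 5.39 in FVB Nx kidneys, against 3.34, 3.64, 4.35 and 4.52 in FVB sham kidneys, and 6.82, 6.02, 6.61 and 6.79 in B6 Nx kidneys, against 3.40, 3.51, 3.51 and 3.61 in B6 sham kidneys. B6 Nx alone stood high. It rose 8.29-fold in B6 against an FVB effect of 0.06 (SE 0.46, adjusted p = 0.953), with a difference of -2.99 (SE 0.66, adjusted p = 0.000575). Cyp24a1, which inactivates vitamin D, rose 9.54-fold in B6 against an FVB effect of -0.52 (SE 0.70, adjusted p = 0.569). Its difference was -3.77 (SE 0.99, adjusted p = 0.00329), and FVB sham already exceeded B6 sham by 2.55 (SE 0.70, adjusted p = 0.00823). The progesterone-metabolising Akr1c18 read 7.28, 11.23, 11.20 and 8.34 in B6 Nx kidneys, against 11.31, 11.92, 12.98 and 12.91 in B6 sham kidneys, with mice 1 and 7 of B6 Nx far below the other arrays. These 2 are also the B6 Nx arrays with pancreatic transcripts. The difference was 3.77 (SE 0.79, adjusted p = 0.000344), and 2.00 without the arrays of all days that carried them. The branched-chain aminotransferase Bcat1 had -3.44 (SE 0.91, adjusted p = 0.0038), with B6 sham values from 2.36 to 6.83. Its call was lost without the arrays with pancreatic transcripts of all days.

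A part of the largest differences came from sham kidneys that differed by strain. The helicase subunit Mcm6 read 8.91, 8.52, 8.52 and 8.42 in FVB Nx kidneys, against 3.35, 3.99, 4.03 and 4.91 in FVB sham kidneys, and 8.11, 8.26, 8.53 and 7.93 in B6 Nx kidneys, against 8.50, 8.27, 8.52 and 8.21 in B6 sham kidneys. FVB sham was the only low group, FVB sham minus B6 sham was -4.31 (SE 0.30, adjusted p = 1.13e-14), and the operated groups overlapped. Its difference of effects was 4.69 (SE 0.42, adjusted p = 1.44e-10), and FVB Nx came up to the level of all 8 B6 arrays. The collagen chain Col5a2 had a sham difference of -3.44 (SE 0.37, adjusted p = 1.36e-09) and a difference of effects of 4.50 (SE 0.52, adjusted p = 2.87e-08). Cacna2d2, a calcium channel subunit, was high in FVB sham alone, at 7.77, 7.11, 7.53 and 7.20, against 2.38 to 2.80 in B6 sham kidneys, and its difference was -4.34 (SE 0.41, adjusted p = 4.63e-10). The hormone carrier Serpina6 was high in FVB sham alone (6.26, 6.75, 6.68 and 9.08), with the 12 other arrays at 2.20, and fell at least 30.2-fold in FVB. The nucleic acid sensor Ifi202b was at 2.20 to 2.21 on the 8 B6 arrays and read 7.53, 7.97, 8.34 and 8.53 in FVB Nx kidneys, against 2.86, 4.22, 3.68 and 4.99 in FVB sham kidneys. Without signal in B6 in either state, its difference of 4.15 (SE 0.55, adjusted p = 5.01e-07) is the FVB effect.

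Some of the extreme values belong to genes listed for other tissues, and the tissue their signal came from was not tested. Adipoq, a fat cell hormone, had the lowest difference of all, -5.48 (SE 1.71, adjusted p = 0.0133). It read 8.00, 8.28, 10.63 and 11.34 in FVB Nx kidneys, against 2.48, 8.51, 8.98 and 10.24 in FVB sham kidneys, and 10.45, 9.61, 11.30 and 11.42 in B6 Nx kidneys, against 3.65, 2.90, 2.72 and 3.57 in B6 sham kidneys. It was high on all operated kidneys and on 3 of 4 FVB sham kidneys, and low on FVB sham mouse 1 and on all B6 sham kidneys. With the white adipose mean, which includes it, as a covariate the difference was -1.41 and the call was lost. The Adipoq call was also lost without the arrays with pancreatic transcripts of all days (-5.13) and with the Actb measure (-4.79). Muscle genes Tnnc2 (3.07), Tnni2 (2.35) and Myh4 (2.27) read between 5.25 and 9.84 on FVB Nx mice 7 and 8 and at most 2.36 on the other arrays. None was called without mouse 7 or without mouse 8, Tnnc2 and Tnni2 each lost their call in 14 of the 16 fits that left out 1 array, and they lost it in 25 and 22 of their 34 alternatives. Over whole lists, 3 of 8 muscle genes were higher (median 2.32), 0 of 19 pancreatic genes were called by limma (0 at an unadjusted p under 0.05, median 0.42), and lower effects were called in 1 of 6 white adipose (median -1.74), 2 of 6 brown adipose (-1.44), 1 of 3 erythroid (0.06) and 1 of 6 adrenal and liver genes (1.74). With the Actb measure as a covariate, Tnnc2 (adjusted p = 0.143), Tnni2 (0.119) and Myh4 (0.0705) lost their calls. The fast muscle myosin-binding protein Mybpc2 was high on all 4 FVB Nx arrays (6.20, 5.46, 6.99 and 6.82), read at most 2.22 on the other 12, and rose at least 17-fold. These arrays include mice 10 and 4, where Acta1 read 2.20, and Mybpc2 kept its call in all 35 alternatives. Albumin (Alb) was 4.47, 3.89, 4.47 and 2.53 in FVB Nx kidneys, against 7.63, 6.81, 9.55 and 7.77 in FVB sham kidneys, with a difference of -4.43 (SE 1.20, adjusted p = 0.00447). Sptssb varied within groups by more than it did between them, at 2.20, 2.22, 6.85 and 8.05 in FVB Nx kidneys, against 3.73, 8.10, 7.78 and 8.23 in FVB sham kidneys, and 6.18, 6.83, 8.88 and 3.83 in B6 Nx kidneys, against 2.95, 2.20, 3.05 and 7.65 in B6 sham kidneys, and its difference was -4.60 (SE 1.78, adjusted p = 0.047), a call lost in 21 of the 35 alternatives.

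The strain difference varied by day. The difference of effects was called for 581 genes at day 2 (4.41%), for 17 at day 28 (0.129%) and for 3839 at day 53, each day with its own Nx and sham mice. Across genes, the day 53 difference correlated at 0.119 with that of day 28 and 0.420 with that of day 2 (Pearson; Spearman -0.031 and 0.454), as a description. The change of the difference was tested directly. Between day 28 and day 53 it was called for 1973 genes (15%), and between day 2 and day 53 for 924 (7.01%). Of the 3839 genes called at day 53, 1888 (49.2%) differed from day 28, all of them larger in the same direction at day 53. The 3839 were selected on the day 53 difference, which is part of the change tested, so that direction was largely set by the selection. Of the 581 called at day 2, 285 (49.1%) were called at day 53, 275 in the same direction, which is 7.42% of the day 53 genes.

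**Figure D5:**
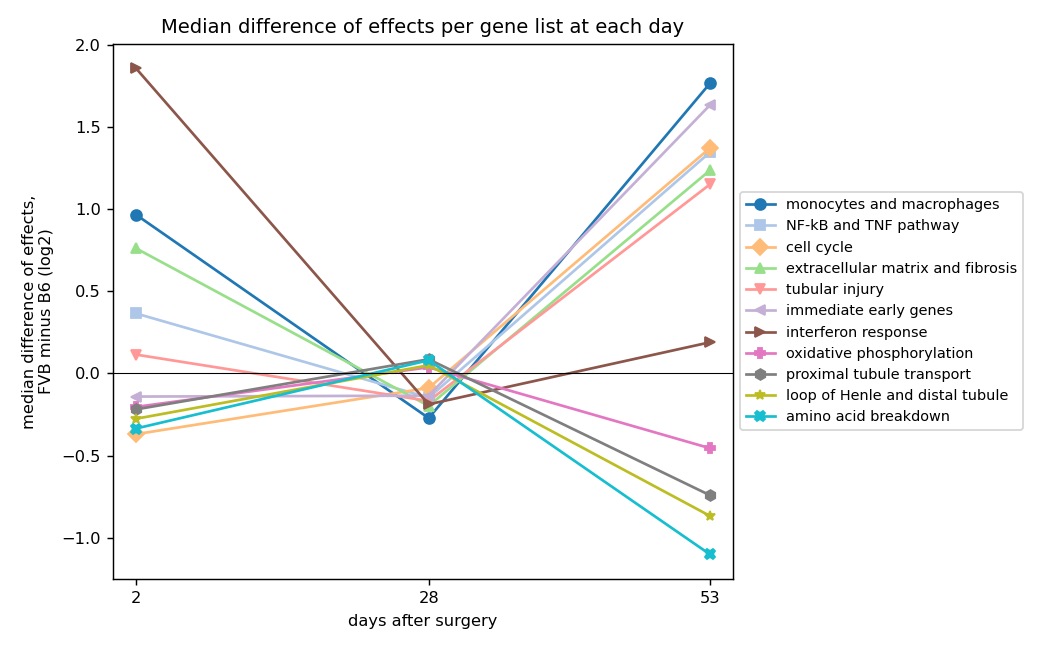
Median difference of effects (FVB minus B6, log2) over the measured genes of 11 lists at 2, 28 and 53 days after surgery. At day 28 all medians lie between -0.27 and 0.09. At day 53 the interferon response list lies at 0.19. The other immune, matrix, injury and cell cycle lists lie between 1.15 and 1.77 at that day, and the tubule and metabolic lists between -1.10 and -0.46.

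The list medians moved differently over the days. The macrophage median was 0.97 at day 2, -0.27 at day 28 and 1.77 at day 53. Cell cycle genes had -0.37, -0.09 and 1.37, and amino acid breakdown -0.34, 0.08 and -1.10. The interferon response had its largest median at day 2, 1.86, against 0.19 at day 53. Krt20 had a difference of -1.34 (adjusted p = 0.00606) at day 2, -0.47 (adjusted p = 1) at day 28 and 4.70 at day 53, and the change from day 2 was 6.04 (SE 0.43, adjusted p = 5.34e-13). Egf had -0.21 (adjusted p = 0.692), 0.24 (adjusted p = 1) and -2.94, and the change from day 28 was -3.19 (SE 0.34, adjusted p = 4.36e-08). Il34 had -0.27 (adjusted p = 0.348), 0.11 (adjusted p = 1) and 2.89, with a change of 2.79 (SE 0.22, adjusted p = 1.94e-11) from day 28. Ifi202b, without signal in B6 at day 53, had 4.49 (adjusted p = 4.36e-07), 2.72 (adjusted p = 0.0172) and 4.15, and its change from day 2 was -0.34 (SE 0.78, adjusted p = 0.868), short of the threshold.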

How the data were processed

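Whole-kidney RNA of 48 mice was measured on Affymetrix arrays, 12 groups of 4 by strain, surgery and day. The authors deposited 1 table of log2 values for 45101 probe sets; MAS5 is named per the submitters' processing notes, but its role and the method of normalization are not given in the sources used here. All arrays share the lowest value, 2.198, which 32.1% of values hold, and array medians lie between 3.168 and 3.441. The number of arrays limits the precision.

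Probe sets with 1 gene symbol in the platform annotation (34958, against 932 with several and 9211 not listed) were kept where at least 4 arrays exceeded 2.277, which is percentile 40 of the whole table. The probe set with the highest mean stands for each gene. A mean per group was fitted over all 48 arrays with limma 3.58.1 in R 4.3.3 (36 residual degrees of freedom, eBayes with an intensity trend, Benjamini-Hochberg over 13174 genes, threshold 0.05). Single-gene p-values in the text are these adjusted limma p-values. The steps were tested on simulated data. Figures used Python 3.11.15 and matplotlib 3.10.9.

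The genes named are the 15 highest and 15 lowest differences and the 12 largest that went opposite ways. The 5 largest with the B6 effect called alone were added. So were up to 4 called genes with the smallest p in each of 41 lists, fewer where fewer were called. This gave 158 genes, and exceptions are named as such. Of the 158, 70 have several kept probe sets. The members and lists were chosen with earlier results of these data known. Alternatives covered scaling, filter, probe set choice, variance model, replicate block, each array left out, the arrays with pancreatic transcripts, the thresholds and, chosen after the data were seen, 3 covariates (white adipose, skeletal muscle and Actb measures).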

Additional observations from a re-analysis of the deposited data

Results flagged for a closer look

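The strains' effects differed by limma's test of the difference itself for 3839 genes at day 53, and 51 of these went opposite ways. The strain difference itself changed from day 28 to day 53 for 1973 genes and from day 2 to day 53 for 924 genes.

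In some groups of 4, 1 array stood apart: its gap to the nearest neighbour, as a share of the group's whole range, was above Dixon's critical value for 4 samples. This held for 11 of 164 groups of list means and 21 of 168 groups of 42 genes, and chance gives about 1 in 20. The adrenal and liver list mean read 5.917 in B6 sham mouse 3, with the others from 5.306 to 5.357 (share 0.917). In FVB sham mouse 5, the adrenal and liver list mean was at 4.595, and the others of its group were from 3.738 to 3.872 (share 0.844). B6 sham mouse 1 stood apart in the amino acid breakdown list mean at 10.380, with the rest from 10.710 to 10.760 (share 0.8626). The cell cycle list mean read 4.229 in FVB sham mouse 6, with the others from 3.873 to 3.933 (share 0.8318). In B6 Nx mouse 7, the fatty acid oxidation and peroxisome list mean was at 12.050, and the others of its group were from 11.890 to 11.900 (share 0.9323). B6 Nx mouse 1 stood apart in the monocytes and macrophages list mean at 8.022, with the rest from 7.485 to 7.554 (share 0.8707). The myofibroblasts and pericytes list mean read 6.972 in B6 sham mouse 1, with the others from 6.795 to 6.820 (share 0.8573). In B6 Nx mouse 7, the neutrophils list mean was at 3.683, and the others of its group were from 2.576 to 2.708 (share 0.8808). B6 sham mouse 1 stood apart in the neutrophils list mean at 2.857, with the rest from 2.584 to 2.590 (share 0.977). The oxidative phosphorylation list mean read 13.700 in FVB sham mouse 6, with the others from 13.590 to 13.610 (share 0.8387). In B6 Nx mouse 1, the proximal tubule enzymes list mean was at 11.660, and the others of its group were from 11.910 to 11.960 (share 0.8403).

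Among genes, several such gaps lie at lowest or repeated low values, where they are small. Ankrd1 read 6.020 in B6 Nx mouse 1, with the others from 4.255 to 4.548 (share 0.8337). In FVB sham mouse 3, Krt20 was at 2.987, and the others of its group were at 3.048 (share 1). B6 sham mouse 3 stood apart in Clec4n at 2.255, with the rest from 2.198 to 2.203 (share 0.9159). Pik3ap1 read 2.926 in B6 Nx mouse 1, with the others from 2.899 to 2.900 (share 0.9792). In B6 sham mouse 5, Pik3ap1 was at 2.510, and the others of its group were from 2.859 to 2.899 (share 0.8957). FVB sham mouse 1 stood apart in Pik3ap1 at 2.896, with the rest at 2.900 (share 1). Mybpc2 read 2.220 in B6 Nx mouse 2, with the others at 2.198 (share 0.9883). In B6 Nx mouse 1, Serpina3n was at 3.857, and the others of its group were at 3.326 (share 0.9999). FVB sham mouse 6 stood apart in Serpina3n at 3.079, with the rest at 3.068 (share 1). Lcn2 read 4.446 in FVB sham mouse 3, with the others at 4.173 (share 1). In B6 Nx mouse 4, Serpina6 was at 2.198, and the others of its group were at 2.199 (share 1). B6 sham mouse 6 stood apart in Sptssb at 7.654, with the rest from 2.198 to 3.055 (share 0.843). Sptssb read 3.727 in FVB sham mouse 1, with the others from 7.783 to 8.232 (share 0.9004). In B6 sham mouse 3, Serpina1b was at 5.656, and the others of its group were from 2.348 to 2.468 (share 0.9636). FVB Nx mouse 4 stood apart in Slc22a7 at 7.926, with the rest from 5.110 to 5.488 (share 0.866). Bhmt read 11.570 in FVB sham mouse 3, with the others from 12.470 to 12.580 (share 0.8984). In B6 sham mouse 1, Mogat2 was at 6.530, and the others of its group were from 7.722 to 7.926 (share 0.8543). FVB Nx mouse 7 stood apart in Socs2 at 11.510, with the rest from 11.010 to 11.060 (share 0.9028). Rnase4 read 11.930 in FVB sham mouse 6, with the others from 12.530 to 12.650 (share 0.8345). In B6 sham mouse 3, Cebpd was at 8.225, and the others of its group were from 9.837 to 9.948 (share 0.9354). B6 sham mouse 1 stood apart in Slc22a8 at 10.550, with the rest from 11.200 to 11.320 (share 0.8494).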

How the results depend on the processing

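Of the 158 named genes, 104 kept their call in every alternative that gave a value (34 or 35 a gene), and 10 lost it with at least 1 array left out. Ighm alone reversed, at -1.82 (adjusted p = 0.433 by limma) with the most variable probe set. The medians of 37 of 41 lists kept their sign throughout; those of pancreatic enzymes, white adipose tissue, erythroid cells and adrenal and liver did not. The count of 3839 genes was 1188 when a difference of at least 1 was required (674 higher, 514 lower) and 2547 at an adjusted p under 0.01 (1179 higher). The 51 opposite genes were 101 with array weights, 28 with the white adipose covariate, 6 where the difference and both strains' effects each reached 1 and 18 at the stricter p. The change from day 28, 1973 genes, was 3612 without the arrays with pancreatic transcripts, 904 at a difference of at least 1, 882 at the stricter p and 1221 with the Actb covariate. The fit without the arrays with pancreatic transcripts dropped 3 of the 4 arrays of each Nx group at day 28. It also dropped 2 FVB sham arrays and 1 B6 sham array of that day. The day 28 effects in that fit rest on too few arrays for its count to be weighed against 1973. The change from day 2, 924 genes, was 505 at a difference of at least 1 and 336 at the stricter p. The cause was not tested, other than for the 2 thresholds, which by construction keep fewer genes.

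Leaving out 1 array gave 3392 to 3946 called genes, 1584 to 1938 higher, 1729 to 2048 lower and 34 to 56 opposite, each lowest without B6 Nx mouse 2 except the lower genes, lowest without FVB Nx mouse 4. The changes from day 28 and from day 2 ran from 1645 to 2172 and from 683 to 1107. Same-numbered mice of different groups deviated together with correlations from -0.230 to 0.443 over 8 pairs (median 0.133). Over 88 pairs with different numbers the correlations ran from -0.366 to 0.384 (median -0.008). The ranges overlap and the pairs are few, so whether equal numbers mark shared batches cannot be decided here. With the number as a fixed replicate block, 3228 genes were called (1294 higher, 1934 lower), 2 went opposite ways and 552 changed from day 2; as a random block, 3877 were called. Calls of genes near the lowest value rest on signal close to background.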
